A study of Mus musculus with 13 samples.

Results

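Hmgcs1, Sqle, Idi1, Insig1, Srebf2, Stard4 and Sc5d are 7 genes of cholesterol synthesis, its control and the handling of sterols inside the cell. They were taken by name from the 22967 features kept on expression arrays of mouse embryonic stem cell (ESC) lines, and all 9 of their probes were read. They had been chosen on their changes after OHT treatment, with Hmgcs1 set against the other 6. Those changes are therefore described here, and calls counted among them below are not taken as support. In all lines compared, floxed alleles of Jmjd2 (Kdm4) genes, which encode histone demethylases, can be deleted by CreERT2, a Cre recombinase expressed from the Rosa26 locus and switched on by the tamoxifen metabolite OHT. Lines cl4, cl5 and cl6 (2ac) carry Jmjd2a(f/f) and Jmjd2c(f/f) beside Rosa26::CreERT2, and the other lines, named cl280.4, cl324.9 and cl324.13 (2abc), carry Jmjd2b(f/f) as well. Every line was sampled as an untreated culture (control) and as a culture given 500 nM OHT for 12 days and harvested 6 days later, which gives 4 groups of 3 samples. The ESCs derive from C57Bl/6 mice and grew on gelatin in serum-free N2B27 with LIF, the MEK inhibitor PD0325901 and an inhibitor of GSK3. CreERT2 is present in the control cultures too, and no OHT-treated line without floxed alleles was analysed here, so an effect of OHT or of active Cre and an effect of the deletions cannot be told apart.

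Cells make cholesterol from acetyl-CoA through the mevalonate pathway and take it up in lipoproteins. When membrane sterol is scarce, the transcription factor precursor encoded by Srebf2 leaves the endoplasmic reticulum with its escort Scap, is cleaved in the Golgi, and its released domain switches on genes of synthesis and uptake. When sterol is plentiful, Insig proteins hold Scap and the precursor back. Embryonic stem cells divide fast and need sterol for new membrane, and serum-free medium offers little lipoprotein.

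Promoter sequences of 5 of the 7 genes were found in a RefSeq table of assembly GRCm38.p6. For 3 of them the 250 bases before the annotated start are shown 5′ to 3′ on the gene's own strand. Hmgcs1 was taken because its change after OHT was the lowest of the 7 genes. Sc5d was taken because it was higher after OHT in every line, and Srebf2 because it encodes the regulator of the pathway. The Hmgcs1 window is chr13:119690101-119690350 on the plus strand, that of Sc5d is chr9:42264301-42264550 on the minus strand and that of Srebf2 is chr15:82147019-82147268 on the plus strand. Capitals mark matches on either strand to the core of the sterol regulatory element (searched as TCACNCCAC), the CCAAT box (searched by these letters), the GC box (searched as GGGCGG) or the E-box (searched as CACGTG), and no 2 matches overlapped.
Hmgcs1: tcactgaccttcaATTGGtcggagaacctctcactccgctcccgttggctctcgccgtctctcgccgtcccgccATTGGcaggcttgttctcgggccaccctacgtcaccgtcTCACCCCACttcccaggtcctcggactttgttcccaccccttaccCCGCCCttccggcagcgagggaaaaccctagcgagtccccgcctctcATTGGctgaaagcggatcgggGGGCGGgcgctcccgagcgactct
Sc5d: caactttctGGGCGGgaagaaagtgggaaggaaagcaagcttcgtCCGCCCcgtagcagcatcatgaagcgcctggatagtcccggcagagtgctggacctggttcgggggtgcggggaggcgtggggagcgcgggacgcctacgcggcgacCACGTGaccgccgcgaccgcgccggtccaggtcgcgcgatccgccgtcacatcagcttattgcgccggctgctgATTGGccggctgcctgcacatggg
Srebf2: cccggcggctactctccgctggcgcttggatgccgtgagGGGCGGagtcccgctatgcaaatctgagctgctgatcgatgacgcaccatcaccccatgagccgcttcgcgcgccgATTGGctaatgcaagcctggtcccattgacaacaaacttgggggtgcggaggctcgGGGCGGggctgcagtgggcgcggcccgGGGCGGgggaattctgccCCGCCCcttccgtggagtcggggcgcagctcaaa
The Hmgcs1 window held 1 match to TCACNCCAC, 137 to 129 bases before the start, together with 3 CCAAT and 2 GC box matches. The windows of Sc5d, Srebf2, Idi1 and Insig1 held 0 matches to that core, and of the 16 sterol synthesis genes with a window Hmgcs1 was the 1 gene that held it. Of all 32851 windows of that length in the table, 1.05% held the core, 33.8% held CCAAT, 32.7% held the GC box and 6.02% held the E-box. Sc5d had 1 CCAAT, 2 GC box and 1 E-box match, and Srebf2 had 1 CCAAT and 4 GC box matches. The search took exact letters in these 250 bases, so near matches and elements elsewhere were not counted. For example, the Srebf2 window holds tcaccccat, which differs from the core in its last letter. A window without a match is therefore not shown to lack a sterol element. A match describes letters in a window, and binding was not measured in these samples.

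The 12 samples were measured on 13 arrays, since the OHT culture of cl4 was hybridised to 2 arrays and counted as 1 sample. On these arrays 50.1 to 63.9% of probes were well above background and 0 were saturated. All 9 probes of the 7 genes were well above background on 13 of 13 arrays. Levels are given as log2 of the processed signal relative to the array's 75th percentile, a change is the OHT level minus the control level of the same line, and values of different probes are not set against each other. The targeted genes checked the labels: Kdm4c had changes of -2.90 in 2ac and -3.21 in 2abc (limma adjusted p = 0.00494 and 0.00405), Kdm4a of -0.74 and -0.67 (0.0116 and 0.0122), and Kdm4b of -2.22 in 2abc (0.00448) against 0.12 in 2ac (0.736). Where these probes lie relative to the deleted exons is not known here, so signal left after OHT is no measure of intact transcript. All 10 ESC markers examined, among them Pou5f1, Nanog and Sox2, were above background in every group. Over the 6 lines 3 of the 10 fell and 0 rose (Tfcp2l1 by 0.55, Zfp42 by 0.50 and Tdgf1 by 0.45). Of all features 14.7% were called lower and 14% higher. In 2ac 2 of the 10 were lower and in 2abc 3, against 6.5% and 9.03% of all features. The summed signal of the 10 relative to the 75th percentile was 718 to 823 in control and 691 to 785 in OHT cultures of 2ac. In 2abc it was 716 to 746 and 667 to 693. Of 9 neural markers measured of 10, 6 rose over the 6 lines and 0 fell, against 14% and 14.7% of all features. On all arrays of a group, 7 of the 10 were above background in each control group and 9 in each OHT group. Some of the 9 may thus have passed the filter through the OHT groups alone, and this count is not taken as support. The summed signal of the neural list was 8.24 to 9.65 in control and 14.3 to 15.03 in OHT cultures of 2ac. In 2abc it was 6.67 to 8.91 and 11.7 to 12.9. Fibroblast markers (4 of 10 measured, 1 higher and 1 lower over the 6 lines) summed to 1.60 to 2.13 in control and 1.80 to 4.69 in OHT cultures of 2ac and to 2.41 to 2.94 and 1.86 to 2.34 in 2abc. Primitive endoderm markers (4 of 10 measured, 1 higher and 2 lower) summed to 0.842 to 0.874 and 0.626 to 0.760 in 2ac and to 0.945 to 1.15 and 0.699 to 1.19 in 2abc. Dcn, Postn, Prrx1, Apoa1 and Ttr were above background in no group. The part of these markers in the sterol gene values was not tested. In bulk RNA such as this, fewer cells with a transcript and less transcript per cell cannot be told apart.

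Hmgcs1 (chromosome 13, probe A_55_P2032966) encodes the cytosolic HMG-CoA synthase, which joins acetoacetyl-CoA and acetyl-CoA early in the mevalonate pathway. In the 2ac lines cl4, cl5 and cl6 its level was 5.82, 5.72 and 5.71 in control cultures and 4.76, 4.16 and 3.76 after OHT. In 2abc the order is cl280.4, cl324.9, cl324.13, and it was 5.87, 5.69 and 5.75 in control cultures and 4.24, 3.73 and 3.87 after OHT. The 6 control values lay within a narrow band, all OHT values lay below all control values (no overlap with OHT lower was found for 15.4% of all features in 2ac and 22% in 2abc), and the OHT values spread more widely than the controls, with cl4 the highest and cl324.9 the lowest. Group means were 5.75 ± 0.06 (SD, n = 3) and 4.22 ± 0.50 in 2ac and 5.77 ± 0.09 and 3.95 ± 0.27 in 2abc. From high to low the order was control 2abc, control 2ac, OHT 2ac and OHT 2abc, and both the first pair and the last pair overlapped. The change was -1.06, -1.55 and -1.96 in cl4, cl5 and cl6 and -1.62, -1.96 and -1.88 in cl280.4, cl324.9 and cl324.13. The fitted change was -1.52 (SE 0.17) in 2ac and -1.82 (SE 0.17) in 2abc, which is 2.88-fold and 3.53-fold lower and leaves 34.8% and 28.3% of the control signal. Over the 6 lines it was -1.67 (SE 0.12), at the 1.26 percentile of the changes of all features. A lower value in each of the 6 lines was found for 16.1% of all features. Processed signals of this probe ran from 6851 to 28626 over the 13 arrays.

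**Figure D1:**
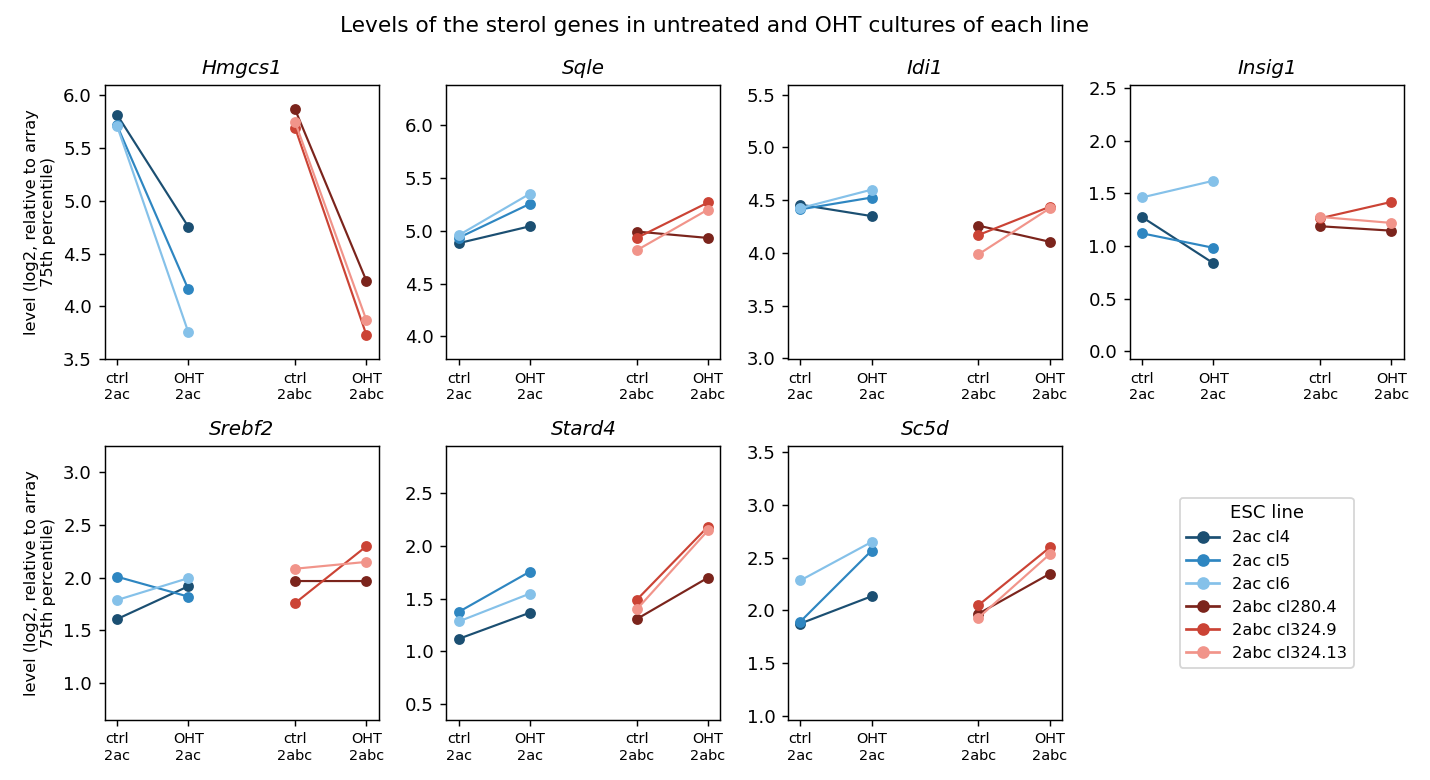
Level of each of the 7 genes (log2 of processed signal relative to the array's 75th percentile, vertical axis, every panel spanning the same number of log2 units) in control and OHT cultures of 2ac and 2abc, with 1 point per sample and a line joining the cultures of 1 ESC line. Hmgcs1 goes from 5.69 to 5.87 in control cultures to 3.73 to 4.76 after OHT, while the changes of the other 6 genes lie between -0.44 and 0.75.

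Downstream of Hmgcs1, Idi1 (chromosome 13, probe A_55_P2028961) encodes the isomerase that makes dimethylallyl diphosphate from isopentenyl diphosphate. Its levels in cl4, cl5 and cl6 were 4.46, 4.41 and 4.42 in control and 4.35, 4.52 and 4.60 in OHT cultures. In cl280.4, cl324.9 and cl324.13 they were 4.26, 4.17 and 3.99 in control and 4.11, 4.44 and 4.42 in OHT cultures. Control and OHT groups overlapped in both genotypes, with cl4 and cl280.4 lower and the other lines higher after OHT. The change was 0.06 (SE 0.13) in 2ac and 0.18 (SE 0.13) in 2abc.

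Sqle (chromosome 15, probe A_55_P1975185) encodes squalene epoxidase, the first oxygen-dependent step towards the sterol ring. Levels were 4.88, 4.93 and 4.96 in control and 5.04, 5.26 and 5.35 in OHT cultures of cl4, cl5 and cl6. They were 4.99, 4.93 and 4.82 in control and 4.93, 5.27 and 5.20 in OHT cultures of cl280.4, cl324.9 and cl324.13. The OHT values lay above the controls without overlap in 2ac, a pattern met by 15.3% of all features, and overlapped them in 2abc, where cl280.4 alone was lower after OHT (-0.06). The change was 0.29 (SE 0.11) in 2ac and 0.22 (SE 0.11) in 2abc, or 1.22-fold and 1.17-fold higher. Line cl280.4 had smaller changes over all features too, with an SD of 0.489 against 0.580 to 0.790 in the other lines, and the part of this in the Sqle and Idi1 values was not tested.

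Sc5d (chromosome 9, probe A_51_P418056) encodes sterol-C5-desaturase, which acts on the ring late in the pathway. Its levels in cl4, cl5 and cl6 were 1.88, 1.89 and 2.28 in control and 2.13, 2.57 and 2.65 in OHT cultures. In cl280.4, cl324.9 and cl324.13 they were 1.97, 2.05 and 1.93 in control and 2.35, 2.60 and 2.53 in OHT cultures. OHT values were above control values in every line, without overlap in 2abc (met by 18.7% of all features) and with overlap in 2ac, where the cl6 control was higher than the OHT culture of cl4. The 2 arrays of that OHT culture differed by 0.17 for Sc5d, the largest such difference among the 7 genes. The change was 0.43 (SE 0.11) in 2ac and 0.51 (SE 0.11) in 2abc, or 1.35-fold and 1.42-fold higher, and a higher value in each of the 6 lines was found for 14.3% of all features.

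**Figure D2:**
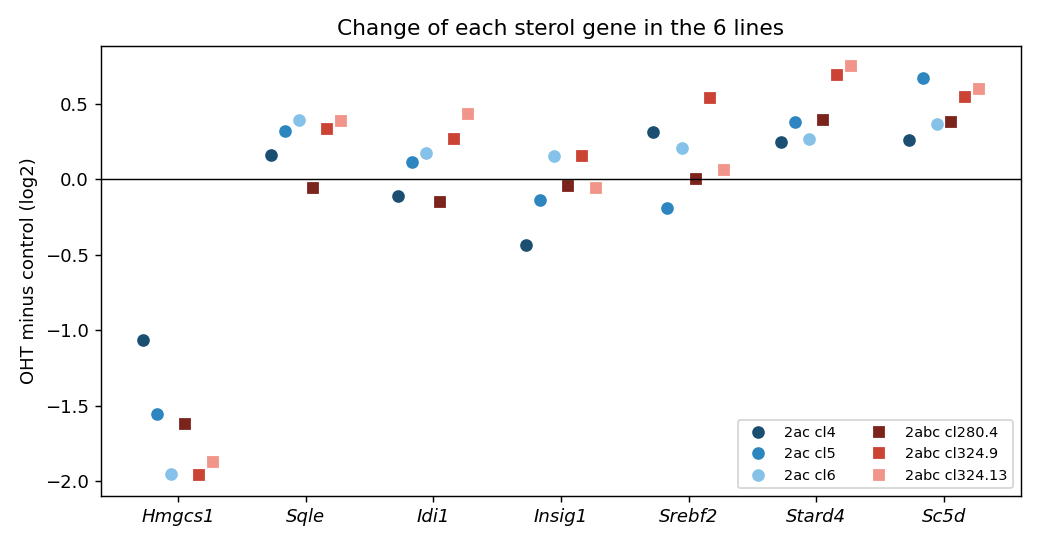
Change after OHT (OHT minus control, log2, vertical axis) of the 7 genes in each line, with circles for 2ac and squares for 2abc lines. Hmgcs1 lies between -1.96 and -1.06, Stard4 and Sc5d lie above 0 in 6 of 6 lines, and Idi1, Insig1 and Srebf2 have lines on both sides of 0.

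Differences were small for the regulators. Srebf2 (chromosome 15, probe A_51_P377508), the transcription factor itself, had levels of 1.61, 2.01 and 1.79 in control and 1.92, 1.82 and 1.99 in OHT cultures of cl4, cl5 and cl6. In cl280.4, cl324.9 and cl324.13 they were 1.97, 1.76 and 2.08 in control and 1.97, 2.30 and 2.15 in OHT cultures. The groups overlapped in both genotypes, cl5 was lower after OHT and cl280.4 equal to 2 decimals. Fitted changes were 0.11 (SE 0.15) in 2ac and 0.20 (SE 0.15) in 2abc. A second, dimmer Srebf2 probe (A_55_P2000487) differed by 0.46, -0.15 and -0.02 in the 2ac lines and 0.00, 0.49 and 0.08 in the 2abc lines, with the same lines at the upper end.

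Insig1 (chromosome 5, probe A_51_P290207) encodes the membrane protein that retains the Scap complex when sterol is abundant, and is itself a target of the pathway. Levels were 1.27, 1.12 and 1.46 in control and 0.84, 0.98 and 1.62 in OHT cultures of cl4, cl5 and cl6. They were 1.19, 1.26 and 1.28 in control and 1.15, 1.42 and 1.22 in OHT cultures of cl280.4, cl324.9 and cl324.13. Cultures overlapped in both genotypes, and the lowest and the highest of the 12 values were both from OHT cultures of 2ac, cl4 and cl6. Changes were -0.14 (SE 0.13) in 2ac and 0.02 (SE 0.13) in 2abc. Line cl4, with the smallest Hmgcs1 change, also had the lowest Insig1 change (-0.44).

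Stard4 (chromosome 18, probe A_52_P384574) encodes a soluble carrier that moves cholesterol between membranes. Its levels in cl4, cl5 and cl6 were 1.12, 1.37 and 1.28 in control and 1.37, 1.76 and 1.55 in OHT cultures. In cl280.4, cl324.9 and cl324.13 they were 1.31, 1.49 and 1.40 in control and 1.70, 2.18 and 2.15 in OHT cultures. Values after OHT were higher in 6 of 6 lines, just overlapping the controls in 2ac and clear of them in 2abc. The change was 0.30 (SE 0.10) in 2ac and 0.61 (SE 0.10) in 2abc, or 1.23-fold and 1.53-fold higher. The second Stard4 probe (A_52_P561205) did not follow the first. Its changes were -0.12, 0.13 and 0.24 in the 2ac lines and -0.12, 0.18 and -0.07 in the 2abc lines, and with the mean of both probes the 2abc change was 0.30.

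Counted together, 1 of the 7 genes (Hmgcs1) passed an adjusted p of 0.05 in 2ac, where limma called 12.3% of all features (5.75% higher and 6.5% lower). In 2abc 3 of 7 did (Hmgcs1 lower, Stard4 and Sc5d higher) against 17.6% of all features (8.59% higher and 9.03% lower). Over the 6 lines the same 3 did, against 28.7% (14% higher and 14.7% lower). These counts describe genes chosen on the same changes, so neither the calls nor their loss in other fits is taken as support. With a line left out, Hmgcs1 was not called in 2ac without cl5 (change -1.51) nor in 2abc without cl324.9 or cl324.13 (-1.75 and -1.79), and Stard4 and Sc5d were not called in 2abc without either of these 2 lines. With the 2abc samples alone neither Stard4 nor Sc5d was called in 2abc, nor was Stard4 with the mean of its probes, nor Sc5d under median scaling or with no filter on dim probes. OHT and control groups did not overlap for Hmgcs1 and Sqle in 2ac and for Hmgcs1, Stard4 and Sc5d in 2abc, where OHT lay below control for 15.4% (2ac) and 22% (2abc) and above it for 15.3% and 18.7% of all features.

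Between the genotypes, the 2abc change minus the 2ac change is made of the same changes that chose the genes, and is given without a test. It was -0.30 (SE 0.25) for Hmgcs1 and 0.31 (SE 0.14) for Stard4. For Sqle, Idi1, Insig1, Srebf2 and Sc5d it lay between -0.07 and 0.16. The changes of the 2ac and 2abc lines overlapped for Hmgcs1 and were just clear of each other for Stard4, at most 0.38 in 2ac and at least 0.39 in 2abc. Of all features 0% were called by limma as differing between genotypes (0 of 22967, with 2526 at an unadjusted p under 0.05).

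The untreated cultures asked whether the genotypes differed before OHT, a comparison the choice of genes did not use, although the control samples are shared. Hmgcs1 differed by 0.02 (2abc minus 2ac, 95% interval -0.46 to 0.51, limma adjusted p = 0.972), and control values of both genotypes overlapped. Idi1 was lower in all untreated 2abc lines (3.99 to 4.26) than in any untreated 2ac line (4.41 to 4.46), a pattern met by 21.5% of all features. Its difference was -0.29 (interval -0.57 to -0.01) and did not pass the adjustment (adjusted p = 0.311), and it was 0.01 when arrays were scaled by their median. That scaling moved the median of all features in this comparison from -0.04 to 0.26. Sqle, Insig1, Srebf2, Stard4 and Sc5d had differences of -0.04 to 0.14 with adjusted p of 0.641 to 0.972. All 2abc controls lay on 1 slide together with the cl6 control, and the other 2ac controls on 2 other slides. Within that slide, with cl6 as the lone 2ac line, Idi1 differed by -0.29 and Hmgcs1 by 0.06, but Sc5d by -0.30 and Insig1 by -0.22. Of all features 0.00871% were called between the untreated genotypes (0.00435% higher and 0.00435% lower in 2abc).

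Hmgcs1 was followed through the rest of its pathway with a list of 21 enzymes from acetyl-CoA to cholesterol, all of which passed the filter. Over the 6 lines 15 of the 21 had a change above 0 and 6 below 0. After Hmgcs1 the next lowest was Tm7sf2, a sterol reductase, at -0.08, so no other enzyme of the list had a decrease of comparable size. Of the 17 enzymes outside the 7 genes, 4 rose over the 6 lines and 0 fell, against 14% and 14.7% of all features. Their median change was 0.15 (all features 0.00). Those that rose were Mvk (0.29, SE 0.06, limma adjusted p = 0.0173), Pmvk (0.41, SE 0.09, 0.0214) and Mvd (0.32, SE 0.08, 0.0353), the enzymes that take mevalonate to isopentenyl diphosphate, and Lss (0.54, SE 0.12, 0.0204), which closes the sterol ring. Each of them was higher after OHT in 6 of 6 lines, a pattern met by 14.3% of all features. A second Pmvk probe was higher in 5 lines and had a change of -0.01 in cl4, while a second Mvk probe was higher in 6. In 2ac or 2abc alone 0 of the 17 passed, against 12.3% and 17.6% of all features. Pmvk lies on chromosome 3, whose 665 genes had a median change of 0.24, and the part of this in the Pmvk value was not tested. In line cl6 the X-linked Nsdhl and Ebp had changes of 0.66 and 0.64, beside a median of 0.72 for the X chromosome in that line and -0.01 to 0.07 in the others. By line, the median of the 17 enzymes was -0.03, 0.17 and 0.26 in cl4, cl5 and cl6 and 0.03, 0.24 and 0.22 in cl280.4, cl324.9 and cl324.13, lowest in cl4 and cl280.4.

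**Figure D3:**
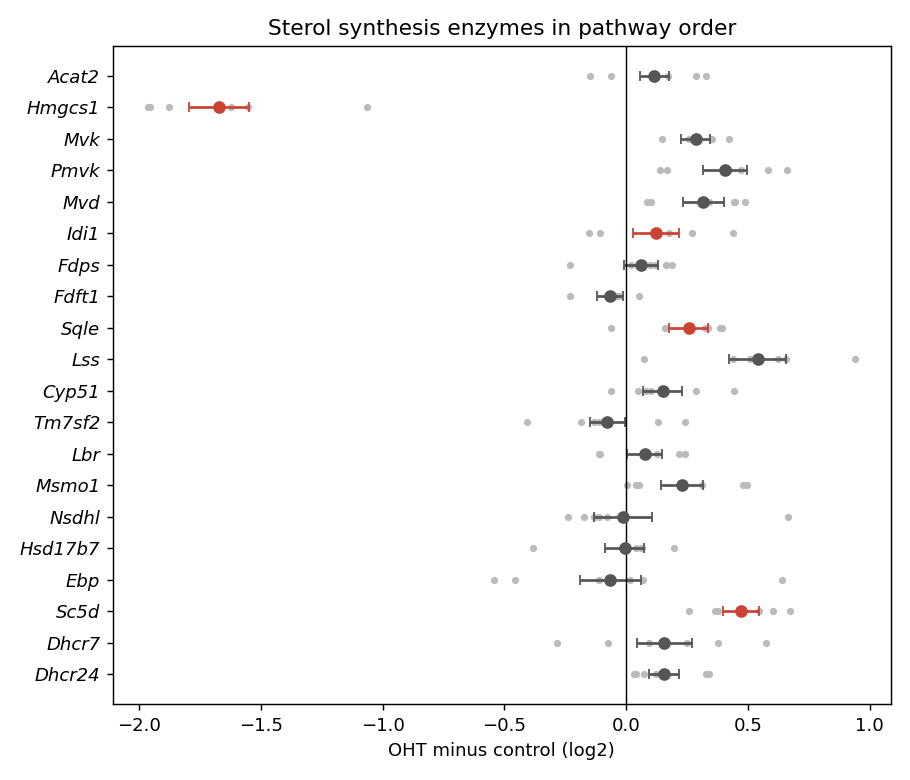
Change after OHT over the 6 lines (log2, horizontal axis) of 20 of the 21 sterol synthesis enzymes, listed from acetyl-CoA to cholesterol, with the fitted mean and its standard error (large points and bars, red for 4 of the 7 genes and dark grey for the others) and the 6 single lines (small grey points). Hmgcs1 stands at -1.67, and the other means drawn lie between -0.08 (Tm7sf2) and 0.54 (Lss).

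Among genes of sterol sensing, 2 of 10 outside the 7 genes rose over the 6 lines and 0 fell (all features 14% and 14.7%). Among them was Rnf139, which encodes a sterol-responsive ubiquitin ligase of the endoplasmic reticulum. It rose by 0.68 (SE 0.10, limma adjusted p = 0.00641) and passed in 2ac (0.63, 0.0433) and in 2abc (0.73, 0.0241). The Rnf139 call was lost in 7 of 16 alternatives in 2ac and in 5 of 16 in 2abc. Srebf1, the paralog of Srebf2 that drives fatty acid synthesis, had a change of -0.20 (SE 0.06, 0.0667).

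Of 13 genes of lipoprotein uptake and intracellular transport, 3 rose over the 6 lines and 0 fell (all features 14% and 14.7%). These include Lipa and Vldlr. Lipa, the lysosomal acid lipase that frees cholesterol from its esters, rose by 0.99 (SE 0.25, limma adjusted p = 0.0316), with a spread of 0.03 to 1.77 over the lines. Vldlr, a lipoprotein receptor, rose by 0.55 (SE 0.16, 0.0441), with 1.15 in 2abc (0.0230) against -0.04 in 2ac (0.936). The difference between genotypes was 1.19 for Vldlr (adjusted p = 0.354) and was not called.

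Of 10 genes of sterol efflux and storage 9 passed the filter. Over the 6 lines 2 of these were called higher and 2 lower, Nr1h3 included (all features 14% and 14.7%). Abca1, the cholesterol exporter induced by liver X receptors, rose by 1.86 over the 6 lines (SE 0.16, limma adjusted p = 0.00162), by 1.79 in 2ac (0.0108) and 1.93 in 2abc (0.00854). Its level went from -2.93 to -1.89 in control to -1.88 to 0.32 in OHT cultures of 2ac, and from -2.64 to -2.20 to -0.70 to -0.35 in 2abc. Of the receptor genes themselves, Nr1h2 (liver X receptor beta) fell by 0.54 (SE 0.08, 0.00595). Nr1h3 (liver X receptor alpha) was above background on 3 of 3 control arrays of each genotype but on 2 of 4 OHT arrays of 2ac and 1 of 3 of 2abc. It passed the filter only through the control groups, so its measured change of -1.48 is given as a value and its call is not taken as support. Cyp7b1, an oxysterol hydroxylase whose gene lies on chromosome 3 like Pmvk, rose by 0.78 (SE 0.20, 0.0314).

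In the branches beside sterol synthesis, 3 of 14 fatty acid synthesis genes fell over the 6 lines and 0 rose (all features 14.7% and 14%). These were Thrsp (-0.94, SE 0.16, limma adjusted p = 0.00934), a regulator of lipogenesis, the malic enzyme gene Me1 (-0.41, SE 0.09, 0.0233) and the desaturase gene Fads2 (-0.35, SE 0.07, 0.0167). Thrsp fell in 2ac (-1.72, 0.0115) and had a change of -0.16 in 2abc (0.676), and the difference between genotypes was not called (1.57, 0.308). Of 11 genes that use the isoprenoid intermediates, Ggps1, which makes geranylgeranyl diphosphate, rose by 0.21 (SE 0.05, 0.0334) and Dhdds, of dolichol synthesis, fell by 0.27 (SE 0.05, 0.0164). A second Ggps1 probe had changes of -0.41 to 0.20 by line, and with the mean of both the adjusted p was 0.607, in a range of 0.013 to 0.607 over the alternatives. Fntb, a farnesyltransferase subunit, fell in 2abc (-0.65, 0.0380) and had a change of 0.26 in 2ac (0.324). The difference between genotypes was -0.92 for Fntb (limma adjusted p = 0.330) and was not called. Its call in 2abc was lost in 8 of 16 alternatives.

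**Figure D4:**
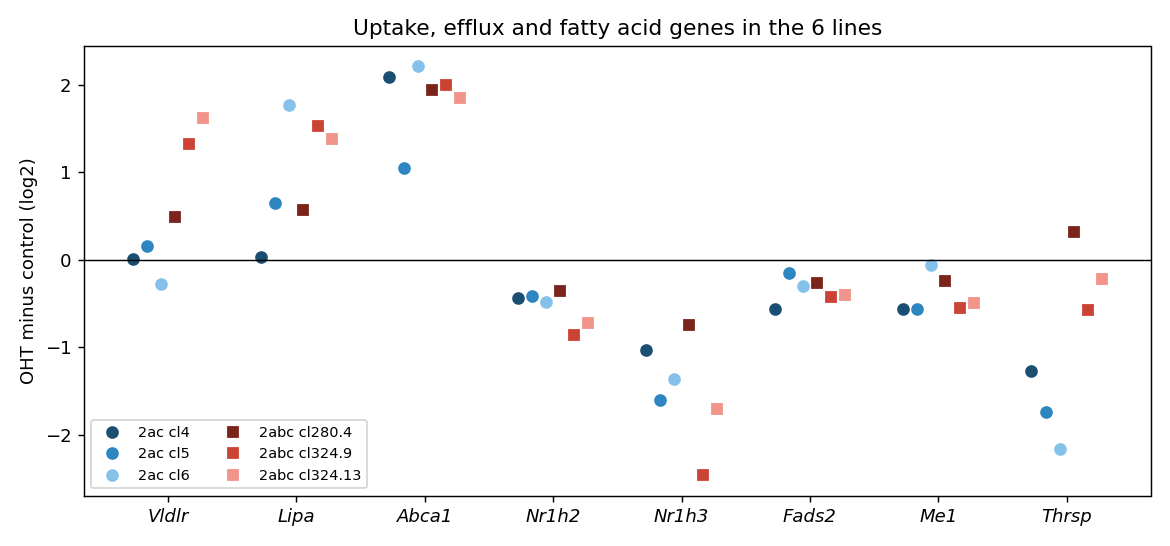
Change after OHT (OHT minus control, log2, vertical axis) of 8 genes of uptake, efflux and fatty acid synthesis in each line, with circles for 2ac and squares for 2abc lines. Abca1 lies between 1.05 and 2.21, and Vldlr lies between 0.50 and 1.62 in 2abc and between -0.28 and 0.16 in 2ac. Nr1h2 lies below 0 in 6 of 6 lines, as do 16.1% of all features. Nr1h3 also lies below 0, but was above background on only part of the OHT arrays.

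Over the 6 lists, 12 of 74 genes outside the 7 were called higher over the 6 lines and 6 lower (Nr1h3 included), which is 24.3% called, against 28.7% of all features (14% higher and 14.7% lower), so the share of pathway genes called was not above the background. Of the 18, 6 passed over the 6 lines in every alternative run for them, among them Abca1, Nr1h2, Rnf139 and Thrsp. This does not hold for their calls within a single genotype. The number of the 18 that still passed was 6 without cl324.13, 7 without cl324.9, 8 without cl5, 10 without cl4, 13 without cl6 and 16 without cl280.4. With no filter on dim probes it was 7 and with arrays scaled by their median 12. The 4 sterol enzymes that rose were among those that lost their call in some of these fits.

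Genes with a pattern like that of Hmgcs1 were sought over the 12 samples by Pearson correlation, as a description. Of 14653 genes, the 5 most alike were Tsnax (0.988), Plk5 (0.986), Pramel12 (0.984), Tcfl5 (0.983) and Ash2l (0.982), none of which is in the sterol lists. For the mean of the other 6 genes they were Zfp608 (0.965), Rcan3 (0.963), Plk4 (0.961), Tro (0.953) and Abi2 (0.952). The 12 points of every correlation are the same arrays in the same 4 groups.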

How the data were processed

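Total RNA was labelled with Cy3 and hybridised to 1-colour Agilent arrays. The deposited spot intensity was background-subtracted within each array, with no scaling between arrays, and came from Agilent Feature Extraction (version 11.0.1.1 per the file headers). The deposited table of the whole series, log2 values that the authors made with limma (version not given) per the submitters' processing notes, served as an alternative. Its columns correlated at 0.995 to 0.998 with log2 processed signal of the same arrays. The deposited table is labelled loess, but the sources used here do not describe its normalisation further or how it was filtered.

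Flagged outlier spots (184 to 253 of 59305 per array) and control spots were left out, spots of a probe were averaged in log2 (55681 probes), and each array's 75th percentile was subtracted (signals of 409 to 521). Of 29123 probes with a RefSeq accession, 27656 were named through a table of assembly GRCm38.p6. The array design is annotated in mm9, so probe positions are not printed. Kept were 30675 probes that stood well above background on all arrays of 1 or more groups, and a gene was represented by its brightest probe. limma 3.58.1 in R 4.3.3 (lmFit, eBayes) was fitted to the 12 samples together, blocked by ESC line as a fixed term (4 residual degrees of freedom), and untreated genotypes were compared by group means with the line as a random block (correlation 0.264). Adjusted p is Benjamini-Hochberg over 22967 features, called under 0.05, and intervals are at 95%. The procedure was run on simulated data with noise scaled down from the spread within lines and the same change in every line. That setting is easier than the real data, so it does not show how the procedure performs on them.

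Control and OHT cultures are paired because they are the same line. As a check, their deviations from the group means correlated at 0.161 in cl4, 0.456 in cl5 and 0.500 in cl6, but at 0.0296 in cl280.4, -0.0207 in cl324.9 and -0.0120 in cl324.13. All 2abc arrays lay on the same slide and the 2ac arrays on 3 slides. A shared line and a shared slide therefore cannot be told apart in the 2ac values. The lines are described as independently established, but whether cl324.9 and cl324.13 share an origin is not stated, and p-values take them as independent. P-values rest on 3 lines a genotype, and the number of arrays limits the precision. The first hybridisation of the cl4 control was of lower quality per the labels and the second was used. The 2 arrays of the cl4 OHT sample (r = 0.994) were averaged.

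The 7 genes, the pathway lists (84 genes, of which 81 passed the filter) and the marker lists were chosen with earlier results of these data known. Named besides the 7 were pathway genes with an adjusted p under 0.05 and the 5 genes most like a pattern. Srebf1, Tm7sf2, Nsdhl and Ebp were named after their values were seen. Some genes of the lists enter the counts but are not reported here by name. Alternatives were scaling by the median, quantile normalization, normexp, no filter, the deposited table, other blocks, other samples in the fit, the mean of probes, and each line left out. For normexp (offset 50) the median spot signal was used, since the files used here have no mean signal column.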

Additional observations from a re-analysis of the deposited data

Results flagged for a closer look

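Abca1 had a change of 1.05 in 2ac line cl5, apart from the other lines, of which the nearest was 1.85 (cl324.13) and the highest 2.21 (cl6). The gap was 0.689 of the whole range of the 6 lines, above Dixon's 95% critical value of 0.625. The changes of 28 genes were looked at in this way, and chance alone would set about 1 in 20 apart. Without cl5 the Abca1 call over the 6 lines was kept.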

How the results depend on the processing

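Hmgcs1, which was chosen on this change, kept its direction in every alternative run. It had -1.79 to -1.56 over the 6 lines, -1.75 to -1.31 in 2ac and -1.92 to -1.75 in 2abc. Hmgcs1 was read by 1 probe, so the mean of probes could not alter its values. Lifting the filter, other blocks and leaving out lines of the other genotype could not alter its change within a genotype either. Sc5d ranged from 0.41 to 0.51 and Stard4 from 0.25 (mean of both probes) to 0.51 over the 6 lines. No called value changed sign. Counts of called features moved more. With no filter on dim probes, which adds features to the adjustment, 909 were called in 2ac (against 2814), 1534 in 2abc (against 4045) and 4354 over the 6 lines (against 6583). With the samples of the genotype alone, and so fewer samples, 1597 and 932 were called. Leaving out 1 line at a time gave 167 (without cl5) to 3434 (without cl280.4) in 2ac, 211 (without cl324.13) to 4720 (without cl280.4) in 2abc and 3563 (without cl324.13) to 6705 (without cl280.4) over the 6 lines. Between the untreated genotypes 2 were called, with 0 under median scaling (5695 at an unadjusted limma p under 0.05), 4 under quantile normalization, 1 with normexp, 0 with no filter, 6 in the authors' deposited table and 5 with no replicate block, and 0 to 1179 (without cl6) when a line was left out. The cause was not tested. With no replicate block 6405 features were called over the 6 lines, so that leaving out the pairing changed that count little. Of pathway genes outside the 7, 12 were called higher over the 6 lines, against 6 under median scaling, 3 with no filter and 3 (without cl324.13 or cl5) to 13 (without cl280.4) with a line left out, and 6 were called lower, against 3 (without cl324.9 or cl324.13) to 8 (without cl6). In 2abc 5 of them rose, against 16 in the authors' deposited table, which tested 15484 features. The cause was not tested.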

Other observations

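The protein-coding neighbours of the 7 genes, up to 3 on each side in the order of the RefSeq table, were read as values, chosen by position alone. Of 29 measured neighbours 10 were called over the 6 lines (34.5%), 3 higher and 7 lower, against 28.7% of all features, with 0 of 4 called around Idi1 and 0 of 4 around Stard4. Beside Hmgcs1 on chromosome 13, Zfp131 fell over the 6 lines by 0.33 (limma adjusted p = 0.0198). Tmem267 and 4833420G17Rik had changes of -0.06 (0.627) and -0.16 (0.529), while Ccl28, Nim1k and Gm46390 were not among the features kept. So of 3 measured neighbours none had a decrease near that of Hmgcs1. Around Srebf2 on chromosome 15, 4 genes fell, with changes of -0.55 for Cenpm, which encodes a centromere protein (0.0036), -1.58 for the receptor gene Tnfrsf13c (0.0136), -0.50 for Mei1, a meiosis gene (0.0246), and -0.52 for Shisa8 (0.0497), while Ccdc134 between Mei1 and Srebf2 had a change of 0.02 (0.900). Near Sc5d on chromosome 9, the glutamate receptor subunit gene Grik4 and Ubash3b fell, with changes of -1.57 (0.0058) and -0.70 (0.038), against 0.47 for Sc5d itself. Ndufb9 (0.22, 0.033) and Mtss1 (0.27, 0.026) rose beside Sqle, and En2 (0.25, 0.044) beside Insig1. These values are over the 6 lines and their relation to the neighbouring sterol genes was not tested.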
